A study of Mus musculus with 6 samples.

Results

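The cytosolic ribosomal protein genes encode the protein subunits of the ribosome, and they were taken by symbol: the Rpl and Rps symbols followed by a number and at most 1 suffix letter and digit, with Rplp0, Rplp1, Rplp2 and Rpsa, and without pseudogene symbols ending in -ps or the Rps6k kinases. The rule matched 89 of the 54735 gene symbols in the count tables. Of these, 85 had enough counts to be tested among 19070 genes, and 84 remained when Rps2, which overlaps snoRNA genes, was set apart. Among the 89 are 6 annotated pseudogenes without -ps in their symbol, and 79 of the 84 are protein-coding. The rule used names, not values. It does not match Fau and Rpl36al, which also encode ribosomal proteins.

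Whole pancreas was taken from mouse embryos at e16.5, and RNA was sequenced from 3 embryonic samples of genotype Neurog3:cre (control) and 3 of genotype Neurog3:cre;RARdnfl/fl (RARdn). RARdn is a floxed dominant negative retinoic acid receptor, and the series asked how retinoic acid signalling in endocrine progenitors affects islet cell fates. All 6 samples carried Neurog3:cre and a mixed C57Bl6/129SV background. The Neurog3 driver acts in endocrine progenitors, a minority of the cells of the whole pancreas that was sequenced. In such bulk tissue, fewer cells of a type and less RNA per cell cannot be told apart. The labels do not say whether the samples came from separate litters, so a p-value here reflects only how far these 6 samples scatter, part of which could be technical.

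Counts in genes ranged from 35256531 to 52015498 per library. The acinar marker list held 17.5% to 18.7% of counts in the controls, and 7.17%, 21.3% and 26.2% in RARdn 1, 2 and 3. Albumin (Alb), a liver gene, had 1.36, 2.92 and 1.18 CPM (counts scaled to library size) in the controls and 597, 137 and 3.19 CPM in RARdn 1, 2 and 3. Xist, the noncoding RNA of the inactive X chromosome, was at 1158 CPM in control 1 and 1118 CPM in control 3, and at 0.312 CPM or less in control 2 and the 3 RARdn libraries. Ribosomal RNA genes took 1.03% to 1.09% of counts in the controls and 0.111% to 0.185% in RARdn. Whether these differences play a part in the results on ribosomal protein genes was not tested, except where a value is given beside a result.

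Each ribosome has a small subunit, which reads the mRNA, and a large subunit, which joins the amino acids. Most ribosomal proteins are made in equal numbers, and their genes are among the most active in growing tissue, including the acinar cells of the pancreas, which make secreted enzymes in bulk. Many of their mRNAs begin with a C followed by a run of pyrimidines, the terminal oligopyrimidine (TOP) tract, through which mTOR signalling sets their translation. Mammalian genomes also hold many processed pseudogenes of these genes, intronless copies made from their mRNAs, and short reads from a gene and a close copy are hard to tell apart.

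Counts on such copies bear on the results for several members. Stretches of 4 genes are therefore shown beside a copy whose counts ran against theirs over the libraries. These pairs were chosen after their values were seen, and whether reads of one were counted on the other was not tested. Each pair covers 90 bases of aligned sequence, read 5′ to 3′ on the gene's sense strand from GENCODE M21 transcripts (GRCm38), and capitals mark the bases that differ within the pair. For each pair, the gap-free window with the most differing bases is shown, so other stretches of that length differ as much or less. Positions are counted from 1 at the first base of the gene's coding sequence. The first pair covers positions 1 to 90 of Rps2 (gene at chr17:24718116-24721929, plus strand) and chrX:52898588-52898677, plus strand, of Rps2-ps13.
Rps2: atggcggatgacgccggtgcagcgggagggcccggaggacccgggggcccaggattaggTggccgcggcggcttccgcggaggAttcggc
Rps2-ps13: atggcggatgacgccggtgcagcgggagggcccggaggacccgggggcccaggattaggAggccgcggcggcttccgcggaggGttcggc
The second covers positions 1 to 90 of Rpl3 (chr15:80077791-80091868, minus strand) and chrX:13202572-13202661, plus strand, of Rpl3-ps1.
Rpl3: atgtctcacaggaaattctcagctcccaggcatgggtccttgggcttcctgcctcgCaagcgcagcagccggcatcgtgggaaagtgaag
Rpl3-ps1: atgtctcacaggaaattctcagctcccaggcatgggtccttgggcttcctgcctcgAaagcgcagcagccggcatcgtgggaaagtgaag
The third covers positions 43 to 132 of Rpl34 and chr6:71124652-71124741, plus strand, of Rpl34-ps1.
Rpl34: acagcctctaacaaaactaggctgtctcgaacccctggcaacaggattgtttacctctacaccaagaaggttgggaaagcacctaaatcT
Rpl34-ps1: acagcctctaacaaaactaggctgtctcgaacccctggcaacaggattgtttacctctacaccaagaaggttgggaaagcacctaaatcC
The fourth covers positions 130 to 219 of Rpsa (chr9:120127689-120132369, plus strand) and chr3:150073324-150073413, minus strand, of Rpsa-ps10.
Rpsa: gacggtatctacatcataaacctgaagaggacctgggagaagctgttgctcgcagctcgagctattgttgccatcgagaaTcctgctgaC
Rpsa-ps10: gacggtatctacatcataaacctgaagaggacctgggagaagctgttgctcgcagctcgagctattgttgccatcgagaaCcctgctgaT
Within these windows Rps2 and its copy differ by T60A and A84G, Rpl3 and its copy by C57A, Rpl34 and its copy by T132C, and Rpsa and its copy by T210C and C219T. Over their whole alignments the pairs held 7 mismatches with 13 gap bases for Rps2, and 2 for Rpl3, 2 for Rpl34 and 6 for Rpsa, with no gap.

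Rps2, a small subunit protein near the mRNA entry site, was the one member far from the rest. Its level was 1219, 638 and 1223 CPM in controls 1, 2 and 3, and 34.2, 33.9 and 40.5 CPM in the RARdn libraries. The groups did not overlap, and control 2 lay between the other controls and the RARdn libraries. The gene was 28.4-fold lower in RARdn, a log2 fold change of -4.83 (SE 0.29, n = 3 per group, edgeR adjusted p = 0.000175). Its annotated copy Rps2-ps13 did the opposite, with 5.09, 390 and 4.17 CPM in the controls and 638, 676 and 781 CPM in RARdn. Control 2 was again in between, and with it the copy did not pass the test (log2 fold change 2.39, SE 1.41, edgeR adjusted p = 0.354). Of the counts on these 2 genes, Rps2-ps13 held 0.416%, 37.9% and 0.340% in the controls and 94.9%, 95.2% and 95.1% in RARdn.

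Added together, Rps2 and all 43 annotated copies gave 1305, 1102 and 1301 CPM in the controls and 720, 766 and 883 CPM in RARdn. The groups still did not overlap, but the log2 fold change shrank to -0.65 (SE 0.17, edgeR adjusted p = 0.0694), which did not pass the threshold of 0.05. The 4 other Rps2 copies that passed the test on their own, Gm45855, Gm5786, Gm7143 and Rps2-ps6, were low and lower in RARdn, with control means of 4.36, 5.70, 4.63 and 5.74 CPM. The snoRNA Snora64, inside Rps2, had no count in any library, and Snhg9, which overlaps Rps2, was at 1.12 ± 0.272 CPM (SD, n = 3) in the controls and 0.157 ± 0.0802 CPM in RARdn and also passed (log2 fold change -2.74, edgeR adjusted p = 0.0178). The neighbouring gene Ndufb10 had an adjusted p of 0.688. Within 1 Mb of Rps2, 5 of 79 tested genes passed (6.33%), against 4.02% of all genes. Whether reads of one transcript were counted on the gene in some libraries and on the copy in others was not tested.

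**Figure D1:**
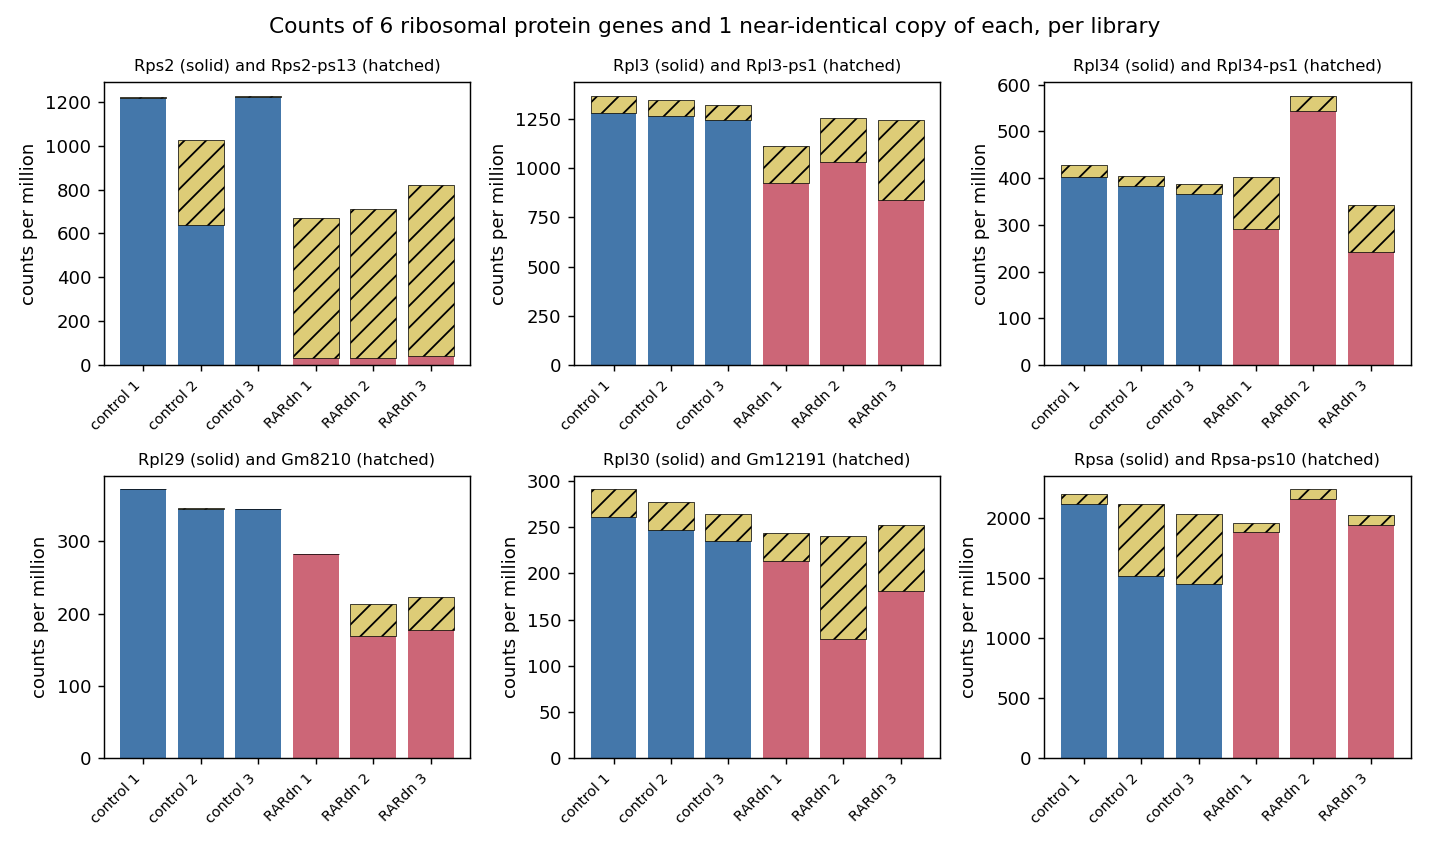
CPM (y axis) of 6 ribosomal protein genes (solid, blue for control and red for RARdn) with 1 near-identical copy of each stacked on top (hatched), in each of the 6 libraries. Rps2-ps13 is at 638 to 781 CPM in RARdn and at 390 CPM in control 2, and Rpsa-ps10 is high in controls 2 and 3.

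Other members also had a copy whose counts ran against theirs, and for some of them this followed single libraries and not the genotype. Rpsa, the laminin receptor homologue of the small subunit, was at 2119, 1517 and 1449 CPM in the controls and 1887, 2158 and 1945 CPM in RARdn. Rpsa-ps10 was at 83.4, 599 and 582 CPM in the controls and 69.9, 82.9 and 77.5 CPM in RARdn. Controls 2 and 3 were thus low in the gene and high in the copy. The 2 together were at 2203, 2116 and 2031 CPM in the controls and 1957, 2241 and 2023 CPM in RARdn, and the groups overlapped. With all 17 copies added, the log2 fold change of Rpsa went from 0.24 to -0.02.

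Rpl3, a protein of the peptidyl transferase region, was at 1279, 1265 and 1245 CPM in the controls and 922, 1029 and 840 CPM in RARdn. These groups did not overlap, and the log2 fold change of -0.44 did not pass in edgeR (adjusted p = 0.157) but did in DESeq2 (adjusted p = 0.00588). Rpl3-ps1 was at 88.1, 82.0 and 77.0 CPM in the controls and 191, 224 and 405 CPM in RARdn, and it passed the test (log2 fold change 1.73, SE 0.26, edgeR adjusted p = 0.0147). Rpl3 with its 21 copies had a log2 fold change of -0.14 (edgeR adjusted p = 0.637).

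Rpl34, a large subunit protein, was at 403, 383 and 365 CPM in the controls and 291, 543 and 243 CPM in RARdn. Rpl34-ps1 was at 25.4, 22.1 and 21.4 CPM in the controls and 112, 33.4 and 99.2 CPM in RARdn, and it passed the test (edgeR adjusted p = 0.0371). RARdn 2, the highest library for the gene, was the lowest RARdn library for the copy. The sum of Rpl34 and its 9 copies was 419 ± 21.6 CPM (SD, n = 3) in the controls and 459 ± 121 CPM in RARdn.

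Rpl29 and Rpl30, both of the large subunit, were lower in each RARdn library than in any control, and neither passed in edgeR. Rpl29 was at 372, 346 and 345 CPM in the controls and 282, 170 and 178 CPM in RARdn (log2 fold change -0.75, edgeR adjusted p = 0.0761), and it passed in DESeq2 (adjusted p = 0.00390). In edgeR it also passed with no filter on low counts (adjusted p = 0.0159), with the replicate number as a block (0.0472) and without RARdn 1 (0.0110). Its copy Gm8210 on chromosome 1 was at 0.579 CPM or less in the controls and in RARdn 1 at 0.530 CPM, but at 43.5 and 44.4 CPM in RARdn 2 and 3. RARdn 2 and 3 share a number in their labels that RARdn 1 does not, and the labels do not explain it. Rpl30 was at 261, 247 and 235 CPM in the controls and 214, 130 and 181 CPM in RARdn. With 16 copies added, its log2 fold change went from -0.50 (edgeR adjusted p = 0.149) to -0.17 (edgeR adjusted p = 0.414), and that of Rpl29 with 61 copies to -0.54 (edgeR adjusted p = 0.0876).

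Across the family, 77 of 83 protein-coding members that were searched had a copy, 977 copies in all, of which 106 averaged at least 10 CPM. Of 423 copies tested, 8 rose and 4 fell, against 4.02% of all genes. Summing with copies moved the log2 fold change of 7 members other than Rps2 by more than 0.1 and that of 68 others by 0.1 or less. The 7 were Rpl3, Rpl24, Rpl29, Rpl30, Rpl34, Rps10 and Rpsa. Of the summed counts of Rps10 and Rpl24 in the controls, 96.1% and 97.5% were on copies. The exons of Rps10, Rpl24 and Rpl13a overlap the annotated genes RPS10-NUDT3, Gm28037 and Gm45713, each at 0 counts in every library. Reads in more than 1 gene went to a summary line and to neither gene. That line held 5.38% to 5.49% of all reads in the controls and 4.87% to 4.98% in RARdn. How many of these reads came from Rps10, Rpl24 and Rpl13a was not tested. The shares on copies are therefore shares of counts and need not be shares of RNA.

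**Figure D2:**
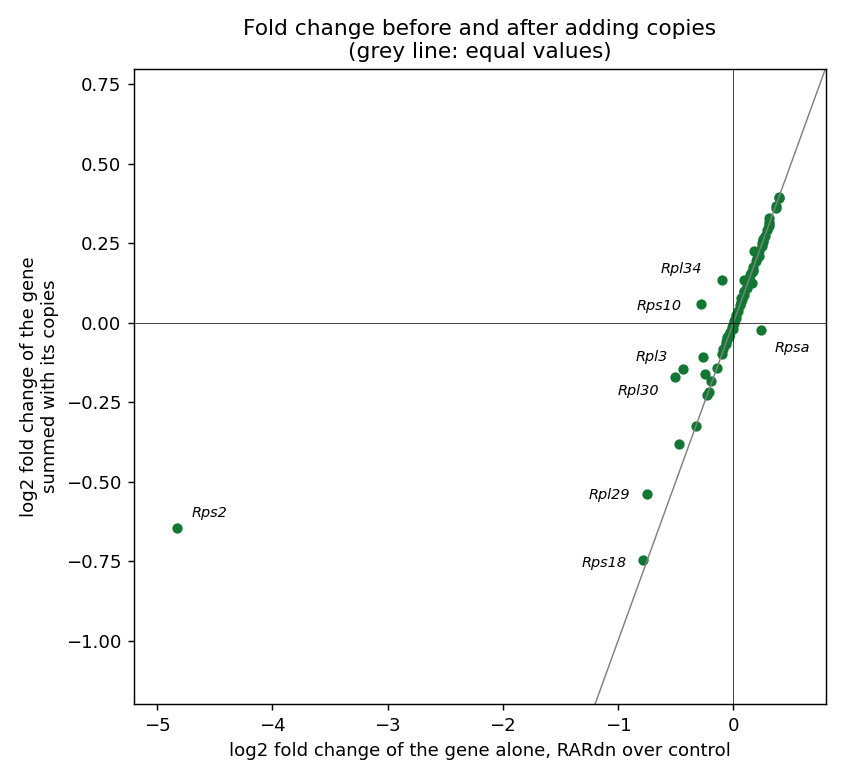
Each point is a ribosomal protein gene with its log2 fold change alone (x axis) and after its copies were added (y axis), RARdn over control. Rps2 goes from -4.83 to -0.65, while most points lie on the grey line of equal values.

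Rps2 apart, the ribosomal protein genes were nearly level between the genotypes. Of the 84 members, 0 rose and 2 fell at an edgeR adjusted p under 0.05. That is 2.38% of them, against 4.02% of all 19070 genes tested (1.37% higher and 2.65% lower). The 2 were Rps18, which is protein-coding, and Rps4l, an annotated pseudogene. At an unadjusted p under 0.05, 4 were higher and 5 lower, where 12% and 10.2% of all genes were. DESeq2 called 0 higher and 4 lower (Rps18, Rps4l, Rpl29 and Rpl3), against 8.99% of all genes (3.99% higher and 5% lower). With limma-voom it was 0 higher and 2 lower, against 4.17% of all genes (1.42% higher and 2.75% lower). With each member summed with its copies, edgeR called 0 higher and 2 lower, against 4.02% of all genes (1.36% higher and 2.66% lower). With libraries scaled to the ribosomal protein genes themselves, it called 0 higher and 1 lower, Rps18, against 3.88% of all genes (1.2% higher and 2.68% lower). The median log2 fold change of the 84 was 0.08, with quartiles of -0.06 and 0.17, beside a median of 0.00 over all genes tested. It was above 0 for 53 members and below 0 for 31, and 80 lay within 0.5 of 0. The 95% interval excluded a 2-fold change for 81 members and a 1.5-fold change for 58. The groups did not overlap for 18 members above the controls (21.4%, against 13.9% of all genes) and for 7 below (8.33%, against 13.7%).

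**Figure D3:**
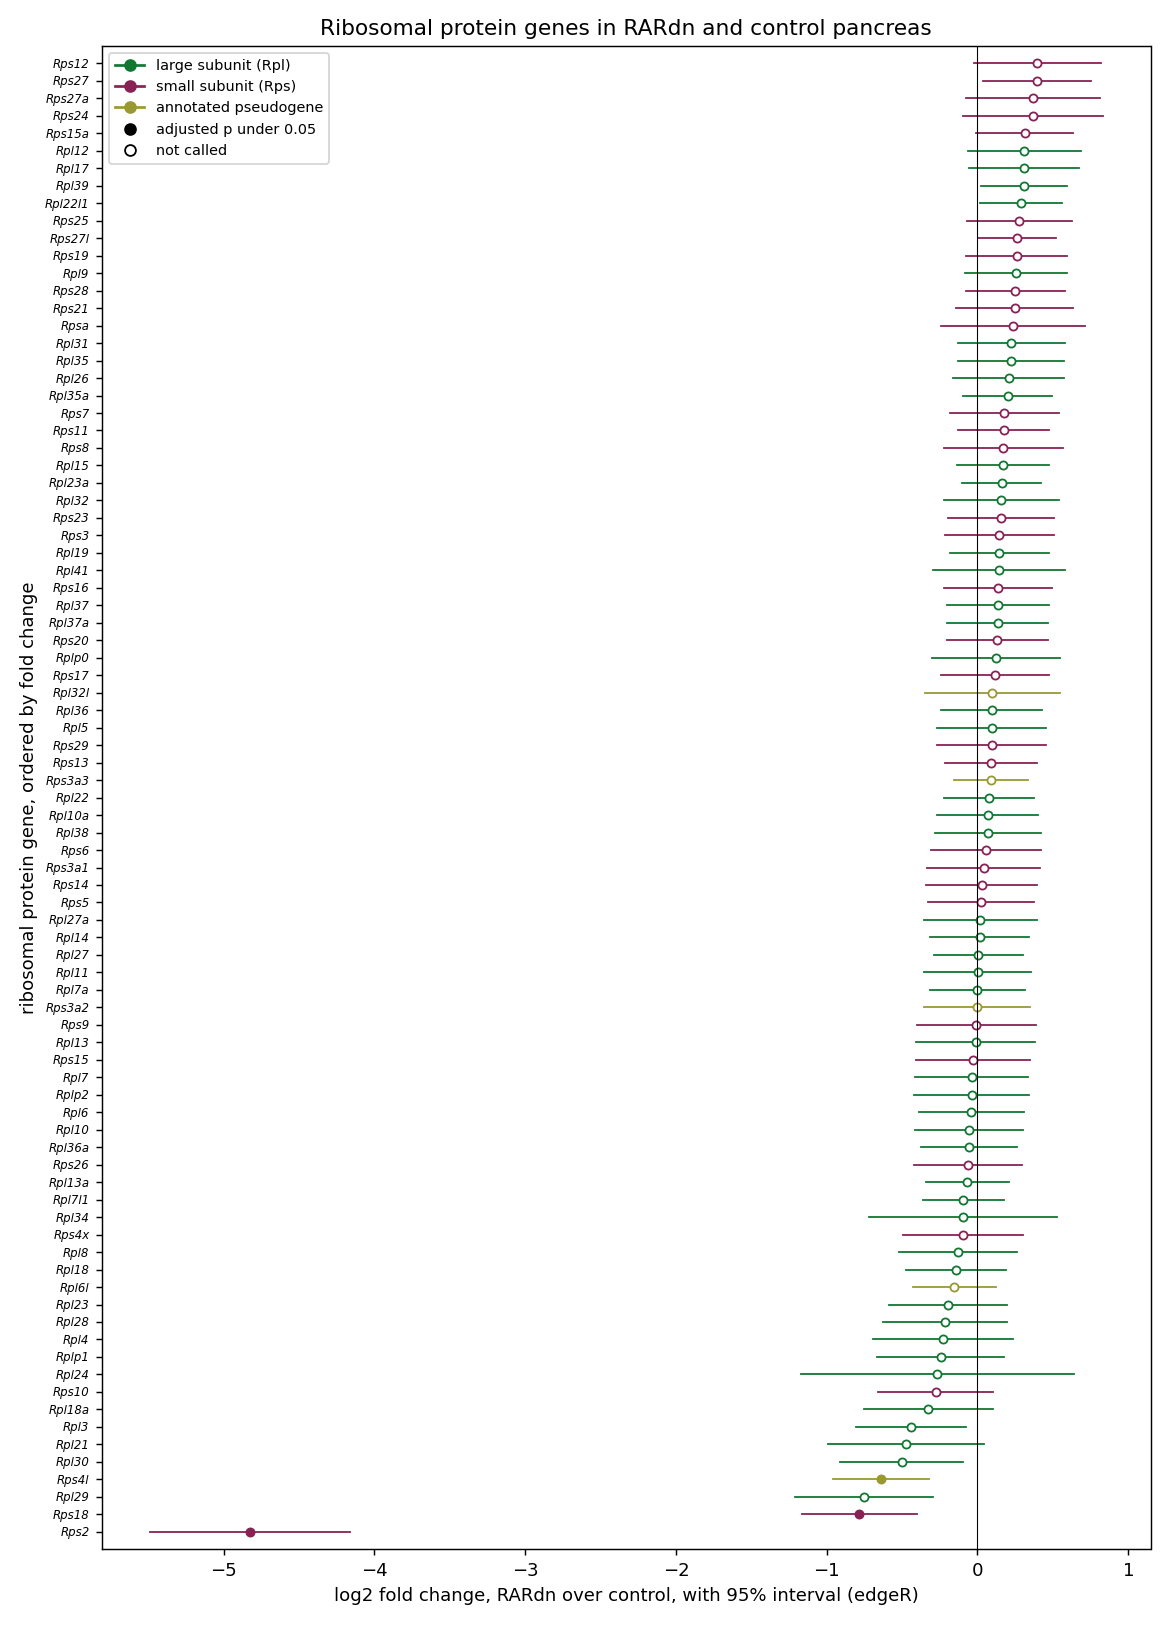
Log2 fold change of each of the 85 tested members, RARdn over control (x axis), with 95% intervals, in order of size; filled points passed the test. Rps2, Rps18 and Rps4l are filled, and all other members have an open point between -0.75 and 0.40.

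The members that fell were Rps18 and Rps4l. Rps18, a protein of the small subunit head (chr17:33951999-33956001, minus strand), was at 907, 675 and 906 CPM in the controls and 469, 513 and 463 CPM in RARdn. The groups did not overlap, and control 2 was again the lowest control, as for Rps2. The log2 fold change was -0.78 (SE 0.17, n = 3 per group, edgeR adjusted p = 0.0418), and its 11 copies, at 10.6 to 20.6 CPM in sum, hardly moved it (-0.75, edgeR adjusted p = 0.0454). The copy Rps18-ps3 rose from 8.40 ± 1.66 to 14.9 ± 1.79 CPM (SD, n = 3; edgeR adjusted p = 0.04). Vps52, whose exons overlap Rps18, had an edgeR adjusted p of 0.285. Within 1 Mb of Rps18, 4 of 79 tested genes passed (5.06%), against 4.02% of all genes. The call was lost without control 1, 2 or 3 (edgeR adjusted p = 0.112, 0.0775 and 0.161) and without RARdn 1 or 2 (0.0620 and 0.0899), and with a term for Xist (0.552). The log2 fold change was -0.71 to -0.91 in the fits without a library and -0.48 with the Xist term. Control 2 was the only control without Xist, so with that term the genotype difference rests mainly on control 2 against RARdn. That fit therefore cannot tell whether the call depends on Xist.

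Rps4l, annotated as a transcribed processed pseudogene of the small subunit gene Rps4x (chr6:148354656-148355598, plus strand), was at 72.5, 68.5 and 72.1 CPM in the controls and 44.6, 37.0 and 55.1 CPM in RARdn. The groups did not overlap (log2 fold change -0.64, SE 0.14, edgeR adjusted p = 0.0437). Per 100 counts of Rps4x it had 5.41, 5.17 and 5.76 counts in the controls and 4.29, 2.95 and 4.03 in RARdn. This call too was lost without any library but RARdn 3 (edgeR adjusted p between 0.0858 and 0.153). It was also lost with a term for Xist (edgeR adjusted p = 0.396), where the genotype difference again rests mainly on control 2. Its log2 fold change in these fits was -0.51 to -0.67, close to the value with all libraries.

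The highest members by fold change were all of the small subunit, and none passed. Rps12 was at 906, 850 and 799 CPM in the controls and 1125, 1326 and 911 CPM in RARdn (log2 fold change 0.40, SE 0.18, edgeR adjusted p = 0.248). Rps27, a zinc finger protein, was at 493, 465 and 429 CPM against 619, 685 and 519 CPM (0.39, edgeR adjusted p = 0.186). In both the RARdn libraries were above every control, with RARdn 3 the nearest to them. Rps27a, made as a fusion with ubiquitin, and Rps24, mutated in some patients with Diamond-Blackfan anaemia, had log2 fold changes of 0.37 each and groups that overlapped, again with RARdn 3 the lowest of its group. Without RARdn 3, 5 members passed as higher, Rps12, Rps27, Rps27a, Rps27l and Rpl22l1, with log2 fold changes of 0.34 to 0.53 and edgeR adjusted p between 0.0272 and 0.0438. That is 5.88% of members, against 6.98% of all genes in the same fit, in which 2 members were lower, against 7.84%.

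The 31 protein-coding small subunit genes other than Rps2 had a median log2 fold change of 0.15, with quartiles of 0.03 and 0.26. The 48 large subunit genes had a median of 0.01, with quartiles of -0.10 and 0.15, so the spreads of the subunits overlap. The ratio of summed counts, small over large without Rps2, was 0.703, 0.683 and 0.680 in the controls and 0.780, 0.775 and 0.713 in RARdn. The RARdn values were all above the controls, that of RARdn 3 by little. With copies added but still without the Rps2 family, it was 0.683, 0.677 and 0.677 in the controls and 0.754, 0.748 and 0.685 in RARdn, again without overlap. With Rps2 counted the groups overlapped, both without copies, at 0.734, 0.700 and 0.714 against 0.781, 0.776 and 0.714, and with all copies, at 0.713, 0.704 and 0.710 against 0.773, 0.765 and 0.706. Neither the medians nor a ratio over members was given a test.

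As a share of all counts in genes, the members without Rps2 took 6.57%, 6.30% and 5.89% in the controls and 7.39%, 6.92% and 5.50% in RARdn. The means were 6.26% ± 0.342 and 6.61% ± 0.984 (SD, n = 3), so the groups overlapped, and RARdn 1 was the highest library and RARdn 3 the lowest. The acinar list, which was lowest in RARdn 1 and highest in RARdn 3, ran the other way among these 3. With the acinar genes taken out of the total, the share was 8.08%, 7.64% and 7.23% in the controls and 7.97%, 8.80% and 7.46% in RARdn.

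**Figure D4:**
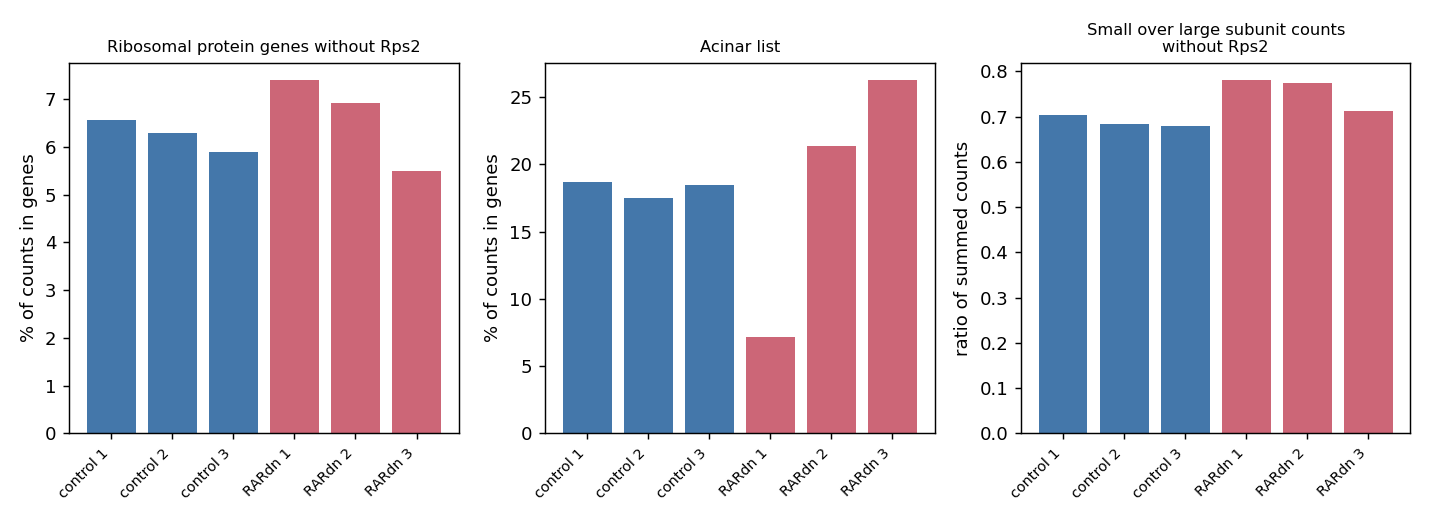
Share of counts in genes taken by the ribosomal protein genes without Rps2 and by the acinar list (y axes in percent), and the ratio of small over large subunit counts, for each of the 6 libraries as bars (blue control, red RARdn). The ribosomal protein share is 7.39% in RARdn 1 and 5.50% in RARdn 3, where the acinar share is 7.17% and 26.2%.

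By level per length, the most abundant members were Rpl41, a very short large subunit peptide, the stalk proteins Rplp1 and Rplp2, and Rps28. Rpl41 was at 3355 ± 342 RPKM (CPM divided by the transcript length in kilobases; SD, n = 3) in the controls and 3702 ± 502 RPKM in RARdn. Rplp1 was at 3288 ± 189 and 2775 ± 413 RPKM, Rplp2 at 2619 ± 230 and 2549 ± 244 RPKM, and Rps28 at 2489 ± 77.5 and 2963 ± 186 RPKM. These 4 had edgeR adjusted p of 0.341 or more. Of the 89 members, 77 averaged more than 100 RPKM, and these ran from 129 to 3528 RPKM.

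The stalk, which recruits the translation factors, was near level as a group. Rplp0, its base, had a log2 fold change of 0.12, Rplp1 of -0.24 and Rplp2 of -0.04, with edgeR adjusted p of 0.745, 0.477 and 0.915. Rplp1 was at 1744, 1618 and 1560 CPM in the controls and 1150, 1535 and 1469 CPM in RARdn, below every control. Its copy Gm11942 on chromosome 4 was at 81.7, 72.0 and 69.6 CPM in the controls and 120, 170 and 160 CPM in RARdn, and rose by 1.01 on the log2 scale (edgeR adjusted p = 0.0139). The Rplp0 copy Gm8730 on chromosome 8 was low, at 30.5 and 29.3 CPM, in control 3 and RARdn 1, and at 134 to 152 CPM in the other libraries.

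Rpl5 and Rpl11, which with the 5S rRNA can bind Mdm2 and so hold p53 when ribosome assembly is disturbed, had log2 fold changes of 0.09 and 0.00. Rpl5 was at 1085, 1076 and 1079 CPM in the controls and 1081, 1268 and 1106 CPM in RARdn, and both genes' groups overlapped. Around the peptide exit tunnel, Rpl4 had a log2 fold change of -0.23, Rpl17 of 0.31 and Rpl39 of 0.31, and none passed. Rpl17 was at 712, 707 and 687 CPM in the controls and 849, 997 and 764 CPM in RARdn, above every control.

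Of the members on the X chromosome, Rpl39 was at 279, 302 and 293 CPM in the controls and 364, 387 and 333 CPM in RARdn, without overlap (edgeR adjusted p = 0.194). Rps4x, Rpl10 and Rpl36a had log2 fold changes of -0.10, -0.06 and -0.06, with groups that overlapped. Control 2, the control without Xist, was the highest control for Rpl39 and lay between the other controls for Rps4x, Rpl10 and Rpl36a.

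Paralogs of a main form were measured too. Rpl22l1 was at 76.2, 72.3 and 70.5 CPM in the controls and 90.2, 101 and 76.0 CPM in RARdn (log2 fold change 0.29, edgeR adjusted p = 0.199). Per 100 counts of Rpl22 it had 21.2, 20.5 and 21.0 counts in the controls and 24.3, 25.4 and 22.9 in RARdn, above every control. Rps27l, a p53 target, had a log2 fold change of 0.26 (edgeR adjusted p = 0.222) and Rpl7l1 of -0.09 (edgeR adjusted p = 0.688). Per 100 counts of Rps27, Rps27l had 32.1, 33.9 and 36.7 counts in the controls and 31.4, 29.7 and 32.6 in RARdn. Per 100 counts of Rpl7, Rpl7l1 had 10.9, 11.5 and 11.8 in the controls and 11.4, 10.3 and 11.3 in RARdn, and for both of these ratios the groups overlapped. Rpl3l, the form of striated muscle, had 3 to 10 counts in a library and Rpl39l, a testis form, 0 to 7, too few to test. Rpl10l, another testis form, and the pseudogene Rps12l1 had 0 counts in all 6 libraries, which allows up to 0.0513 to 0.0987 CPM depending on the library, counting error only.

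Genes that work with the ribosome gave few calls, and each list is set beside the 4.02% of all genes. None of 24 translation factors passed in edgeR (0 higher and 3 lower at an unadjusted p under 0.05; 2 called by DESeq2), with a median log2 fold change of -0.18. Eef1a1, which brings aminoacyl-tRNA, had a log2 fold change of 0.09 and Eef2, which drives translocation, one of -0.18. Of 40 ribosome assembly genes 1 fell in edgeR (0 higher and 7 lower at an unadjusted p under 0.05; 2 called by DESeq2), and 33 had a log2 fold change below 0 (median -0.16). The called gene was Mdn1, the AAA ATPase that strips assembly factors from pre-60S particles, at 45.5, 47.9 and 56.6 CPM in the controls and 26.1 ± 3.68 CPM (SD, n = 3) in RARdn, all below the controls (-0.94, SE 0.13, edgeR adjusted p = 0.0137). Nucleolin, Ncl, was at 759 ± 36.1 and 495 ± 109 CPM without overlap and did not pass (-0.62, edgeR adjusted p = 0.104).

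Of 14 other genes with TOP mRNAs or ribosome association, 16 of rRNA transcription, 18 that regulate TOP mRNAs and 14 p53 targets, edgeR called 0. At an unadjusted p under 0.05 these lists had 0, 1, 2 and 2 genes, and DESeq2 called 0, 0, 0 and 1. Tpt1, a TOP mRNA, had a log2 fold change of 0.36, and Rack1, which sits on the small subunit, one of 0.13. Among the others, Ubtf, a factor of RNA polymerase I, had -0.05, Larp1, which binds the TOP cap, -0.36, and the p53 target Cdkn1a -0.19. Of 76 mitochondrial ribosomal protein genes, which serve a separate ribosome, edgeR called 0 (1 higher and 8 lower at an unadjusted p under 0.05; 1 called by DESeq2), and their median was -0.09.

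Of the marker lists of other cell types, edgeR called 2 of 8 liver genes, 2 of 8 mesenchyme genes and 1 of 8 immune genes as higher. Of all genes, it called 1.37% higher. It called 0 of the acinar, duct, erythroid, endothelium, neural and muscle lists. Of all genes, 12% were higher at an unadjusted edgeR p under 0.05, and DESeq2 called 8.99% in either direction. All 8 mesenchyme genes had a log2 fold change above 0 (median 0.63), 7 had an unadjusted p under 0.05, and 7 were called by DESeq2. Their summed level was 4656 to 6392 CPM in the controls and 7922 to 8977 CPM in RARdn, without overlap. Of the liver genes, 7 had an unadjusted p under 0.05, all higher, and 4 were called by DESeq2. Their summed level was 382 to 411 CPM in the controls and 449 to 1532 CPM in RARdn. At an unadjusted p under 0.05, the immune list had 3 of 8 genes, duct 2 of 7, erythroid 2 of 9, neural 3 of 7 and muscle 1 of 5. All of these were higher. DESeq2 called 2, 1, 1, 3 and 1 genes of these lists, and the acinar and endothelium lists had 0 by either measure. The part of these cell types in the ribosomal protein values was not tested. Of 14 endocrine genes, edgeR called Sst higher and Ins2 and Pyy lower, against 4.02% of all genes, and DESeq2 called 5.

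Some start-site features that the rule did not use were more frequent among the members than among other genes. RefSeq (GRCm38.p6) start windows were found for 64 of the 89. A C followed by at least 4 pyrimidines lay within 15 bases of the start in 64.1% of them, against 36.3% of 26961 other gene windows. The letters CCGGAAG, on either strand of the 300 bases around the start, were in 39.1% against 9.06%. TATAAA on the gene's strand in the 50 bases before the start was in 1.56% against 2.88%. To show the pyrimidine run in members from both ends of the range of fold changes, and in the longest run among the windows drawn (Rpl35, log2 fold change 0.22, edgeR adjusted p = 0.433), 4 windows of 30 bases centred on the start are given, with runs of a C and at least 4 pyrimidines in capitals. They lie at chr2:39005117-39005146 (minus strand) for Rpl35, chr3:90213634-90213663 (minus) for Rps27, chr10:23787195-23787224 (minus) for Rps12 and chr17:33955651-33955680 (minus) for Rps18.
Rpl35: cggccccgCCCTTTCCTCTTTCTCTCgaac
Rps27: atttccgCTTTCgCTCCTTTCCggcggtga
Rps12: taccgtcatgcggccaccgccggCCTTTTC
Rps18: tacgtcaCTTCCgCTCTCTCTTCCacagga
Rps18, which fell, and Rps12 and Rps27, the highest members by fold change, all have such a run. A match of letters is a description of the window, not of its use.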

How the data were processed

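The authors deposited 1 table of raw counts for each of 6 libraries, with 5 summary lines that were kept out of totals and tests. These lines held 30.5% to 31.5% of all reads in the controls and 25.4% to 28.3% in RARdn. Reads outside genes were 7.60% to 8.99% in the controls and 2.90% to 5.30% in RARdn. The part of these differences in the results was not tested. The tools were HISAT2, HTSeq, FastQC, cutadapt, DESeq2 and bedtools on mm10 and GRCm38, per the submitters' processing notes. Versions, annotation and strand setting are not stated there. Reads of overlapping or antisense genes therefore cannot be told apart, and 38 members other than Rps2 overlap exons of another gene. The summary line for reads without a unique alignment held 11.1% to 15.9% per library.

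Genes kept by edgeR's filterByExpr were scaled with TMM and tested with edgeR 4.0.16 (quasi-likelihood, R 4.3.3, 2-sided, genotype as the only term), and p-values were adjusted over 19070 genes by Benjamini-Hochberg, with a call under 0.05. CPM follow TMM scaling, and SE was taken back from the log2 fold change and the test's F statistic. RPKM divides CPM by the length of the shortest GENCODE M21 transcript that holds the longest coding sequence. Copies are annotated pseudogenes that blastn 2.17.0 matched at 90% identity or more over at least 50% of a member's coding sequence, each assigned to its best member.

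On simulated counts the test recovered 28% of 1.5-fold and 88% of 2-fold changes over 18650 genes. The changed genes were drawn over a wide range of levels, and scatter followed the fitted trend, alike in both groups. These shares are therefore not specific to the members. Other filters, scalings, DESeq2 1.42.0, limma 3.58.1 (voom), covariates and left-out libraries were tried. Libraries of 1 group differed by more than sampling noise, and RARdn libraries more than controls. Chi-square per degree of freedom was 13.8 to 24.5 for pairs of controls and 90.1 to 407 for pairs of RARdn libraries. It was 106 to 278 for pairs across the genotypes. The members and lists were chosen with earlier results of these data known. Named genes are Rps2, the called members, the 4 highest and 4 lowest by fold change, the 4 most abundant per length, the stalk, 5S, exit tunnel, paralog and X-linked members, and in each list the called or most abundant genes. Copies and members that summing moved were named after their values were seen, as were Rpl34, Rpl35 and the genes shown as sequences.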

Additional observations from a re-analysis of the deposited data

How the results depend on the processing

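The count of all genes called, 767, was 474 with total count scaling, 2346 with no filter on low counts, 217 with at least 1 CPM in 3 libraries, 2245 with DESeq2, 111 over protein-coding genes alone and 54 with a term for Xist, and between 100 and 2980 when 1 library was left out. Ribosomal protein genes called, 2, were 0 with total count scaling, at 1 CPM, over protein-coding genes and with the Xist term, 1 with scaling to these genes, with the GC content and length correction and among members that overlap no other gene, 4 with DESeq2, and 0 to 7 with 1 library left out. The related lists' count of 1 became 0 with total count scaling and the Xist term, 2 with no filter, with the GC and length correction and with the replicate block, 6 with DESeq2, and 0 to 21 with 1 library left out. With libraries scaled to these genes, the count of 1 became 3 with no filter and 3 with the replicate block. It was 0 to 3 with 1 library left out. In every fit with the Xist term, the genotype difference rests mainly on control 2, the only control without Xist.

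The difference in share, 0.350 percentage points higher in RARdn, reversed to -0.0441 without RARdn 1 and ran up to 0.902 without RARdn 3. The median log2 fold change of the members stayed between 0.01 and 0.15 under every alternative run. Rps2 kept its call under every alternative run (log2 fold change -4.11 to -5.08) except summing with its copies (-0.65, edgeR adjusted p = 0.0694). Among named genes, 9 comparisons across settings gained a call, 21 lost one and 463 did neither. The sign changed in 19 of these 463, over 7 genes (Rpl10, Rpl11, Rpl36a, Rpl7l1, Rplp2, Rps4x and Rpsa), none called in either fit. The correlations of same-numbered libraries were 0.02, -0.06 and 0.17. These values alone cannot settle whether the numbers pair the samples. With the replicate block 817 genes were called, Rps18 lost its call (edgeR adjusted p = 0.0728) and Rpl29 gained one (0.0472). Summing with copies, the block for scaled members and their left-out libraries were chosen after seeing the data. The causes were not tested. In the simulation with 3 libraries a group, a change of 1.5-fold was mostly missed. How often such a change would be missed among these members was not tested.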
